A study of Mus musculus with 28 samples.

Results

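The genes described here encode the constitutive 26S proteasome, measured as liver RNA in mice. They are the 34 of 49585 counted gene features whose symbols are *Psma1* to *Psma7*, *Psmb1* to *Psmb7*, *Psmc1* to *Psmc6*, or *Psmd* with a number. The members were taken by symbol, without the use of any measured value, and the immune subunits were left out. All 34 were protein-coding genes, and all 34 were kept by the filter on low counts, which was blind to the groups. Liver RNA was compared in 7 WT and 7 SIRT6-tg males and in 7 WT and 7 SIRT6-tg females, all of the strain C57BL/6JOlaHsd and between 5 and 7 months old. WT mice carried no transgene, and SIRT6-tg mice overexpressed *Sirt6*, a NAD+-dependent deacylase, throughout the body. The SIRT6-tg mice all descended from 1 transgenic line that had been backcrossed to this strain, so the transgene and the place of its insertion cannot be told apart. The promoter of the transgene is not given in the sources used here. Every mouse had been fasted for a few hours before its liver was taken.

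The proteasome degrades proteins that carry ubiquitin chains. Its 20S core is a barrel of α rings, which form the gate, and β rings, in which *Psmb5*, *Psmb6* and *Psmb7* supply the chymotrypsin-like, caspase-like and trypsin-like sites. The 19S regulatory particle caps the barrel. Its base holds the ATPases that unfold substrates (*Psmc* genes) with the scaffold and ubiquitin-binding subunits, and its lid holds the deubiquitinase *Psmd14*. The list also takes in *Psmd5*, *Psmd9* and *Psmd10*, which are chaperones of base assembly and not parts of the finished particle. The immune subunits *Psmb8*, *Psmb9* and *Psmb10* replace the constitutive catalytic subunits in immune cells and in tissues exposed to interferon. The transcription factors NRF1 and NRF2 are known to act on proteasome genes through antioxidant response elements.

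Promoter windows were looked up because subunit genes are known to be regulated together. RefSeq windows of GRCm38.p6, from 250 bases before to 50 bases after a start site, were found for 28 of the 34 genes (30 windows). The core of the antioxidant response element was searched as TGACNNNGC on both strands. It was present in 5 of 30 member windows (16.7%) and in 12.4% of all 32851 windows, so the share among the members was close to that among all genes. The 5 genes were *Psmb5*, *Psmb6*, *Psmd12*, *Psmc6* and *Psmd9*. The ETS core CCGGAA lay in 16 of the 30 windows (53.3%) against 14.9% of all windows, and CCAAT in 11 of 30 (36.7%) against 37.4%. In the member windows, 0 matches of different motifs overlapped. The sequences below are those of catalytic subunits and of subunits that passed the test in males, with the element core in capitals. They run 5′ to 3′ on the strand of the gene and stop before the first exon of the Gencode model. *Psmb5* is shown on the minus strand (chr14:54618023-54618245), *Psmb6* on the plus strand (chr11:70525107-70525356), *Psmd12* on the plus strand (chr11:107479278-107479483) and *Psmc6* on the plus strand (chr14:45329574-45329787). In *Psmd12* and *Psmc6* the match is on the opposite strand and therefore reads as the reverse complement.
Psmb5: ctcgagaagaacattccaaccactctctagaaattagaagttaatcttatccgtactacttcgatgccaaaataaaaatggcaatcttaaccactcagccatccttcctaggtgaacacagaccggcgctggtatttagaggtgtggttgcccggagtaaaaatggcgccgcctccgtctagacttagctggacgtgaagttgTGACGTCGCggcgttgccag
Psmb6: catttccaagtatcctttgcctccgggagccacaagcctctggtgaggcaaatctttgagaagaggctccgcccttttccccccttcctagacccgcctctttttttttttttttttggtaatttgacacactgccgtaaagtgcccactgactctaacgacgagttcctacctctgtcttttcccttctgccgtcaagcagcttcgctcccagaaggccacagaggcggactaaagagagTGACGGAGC
Psmd12: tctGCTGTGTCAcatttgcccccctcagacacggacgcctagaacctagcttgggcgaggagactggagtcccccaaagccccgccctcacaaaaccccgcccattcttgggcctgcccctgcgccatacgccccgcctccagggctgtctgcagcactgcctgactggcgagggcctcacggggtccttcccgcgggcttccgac
Psmc6: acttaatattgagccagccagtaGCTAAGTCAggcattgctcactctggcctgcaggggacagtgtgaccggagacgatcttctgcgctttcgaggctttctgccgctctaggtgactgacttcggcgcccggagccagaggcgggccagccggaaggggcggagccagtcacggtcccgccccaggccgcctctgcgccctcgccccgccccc
The first base of the match stood 47 bases before the RefSeq start site in *Psmb5*, 9 bases before it in *Psmb6*, 247 in *Psmd12* and 227 in *Psmc6*. In *Psmd9*, which is not shown, it stood 31 bases before the start site. A match describes these letters only.

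Total counts ranged from 18758863 to 35393069 per library. *Sirt6* was higher in every SIRT6-tg library than in every WT library of its sex, with a log2 fold change of 6.68 in males and 3.39 in females. Its CPM (counts set to 1 common library total after TMM scaling) reached 358 in male and 50.2 in female SIRT6-tg mice. All 10 hepatocyte markers examined, among them *Alb* and *Hnf4a*, were detected in all 28 libraries. TMM factors were 1.06 to 1.17 in male WT, 0.821 to 0.993 in male SIRT6-tg and 0.906 to 1.06 in female libraries, so male fold changes depend on the scaling. In bulk liver, fewer cells of a type and less RNA per cell cannot be told apart.

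Levels within the complex were compared per length, as CPM per kilobase of exon (RPKM). In male WT mice the highest level was that of *Psmb4*, a structural β subunit, at 105 ± 38.5 RPKM (SD, n = 7), next to *Psma6* of the α ring at 101 ± 19.5 RPKM (SD, n = 7). These neighbours differed by less than their spread. *Psmb6* followed with 65.1 ± 19.4 RPKM, *Psmc1* with 59.6 ± 9.73 RPKM and *Psmc5* with 50.9 ± 8.76 RPKM (SD, n = 7 each), again within each other's spread. The lowest levels were those of *Psmd5* (5.00 ± 0.223 RPKM), *Psma3* (8.09 ± 0.753 RPKM), *Psmd9* (8.55 ± 3.19 RPKM) and *Psmd10* (11.3 ± 2.08 RPKM, SD, n = 7 each). All assembly chaperones of the list were among these 4. The length takes all annotated exons together, 7230 bases for *Psmd5*, 7248 for *Psmd9* and 3894 for *Psma3* against 1469 for *Psmd10*. An RPKM is too low where part of that length is not in the liver transcript, which was not tested. The median RPKM of the 34 genes was 29.5 in male WT, 37.6 in male SIRT6-tg, 28.3 in female WT and 28.5 in female SIRT6-tg mice. Variation among mice differed more between genes than between groups. In male WT mice the coefficient of variation of CPM was lowest for *Psmd1* (4.20%) and highest for *Psmd9* (37.3%), with a median of 17.5% over the 34 genes.

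In males, the comparison of genotypes asked how the transcripts of the proteasome differ when SIRT6 is overexpressed. Of the 34 subunit transcripts, 11 (32.4%) were higher in male SIRT6-tg than in male WT mice and 0 were lower, at an adjusted p under 0.05 (edgeR's quasi-likelihood test with Benjamini-Hochberg adjustment). Of all 21583 genes tested, 9.68% were higher and 11% were lower. Subunit transcripts are abundant, and 20.6% of the 5818 tested genes in their range of mean levels were higher. The fold changes were small. They lay between 0.03 and 0.49 on the log2 scale, with a median of 0.34 against 0.06 over all genes and 0.17 over the 5818 genes of like level, and all 34 were positive under TMM scaling. An unadjusted p under 0.05 was reached by 24 subunits (70.6%) and by 32.6% of all genes. The standard error was 0.07 to 0.14 among the transcripts that passed the test and 0.08 to 0.27 among the others. With TMM scaling the ranges of the 7 WT and 7 SIRT6-tg mice were separate for *Psmd1* and *Psmd5*, against 2.6% of all genes that were separate in this direction. The count of 11 depended on scaling. It was 10 with DESeq2, 8 with RLE factors, 1 with upper-quartile factors and 0 when counts were divided by library size alone, where 14 of the 34 fold changes were negative and the median was 0.035 over the members and -0.22 over all genes. Of the transcripts called with TMM, *Psmd1*, *Psmd2*, *Psmd5*, *Psmd11* and *Psmd12* were among those 14. The called *Psma3*, *Psmb7*, *Psmc1*, *Psmc2*, *Psmc6* and *Psmd6* stayed positive. Without male SIRT6-tg replicate 7 the median of the members was 0.22. Among all genes called in males, 46.8% were higher with TMM, 35.7% with RLE, 26.2% with upper-quartile factors and 4.89% with library size alone.

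**Figure D1:**
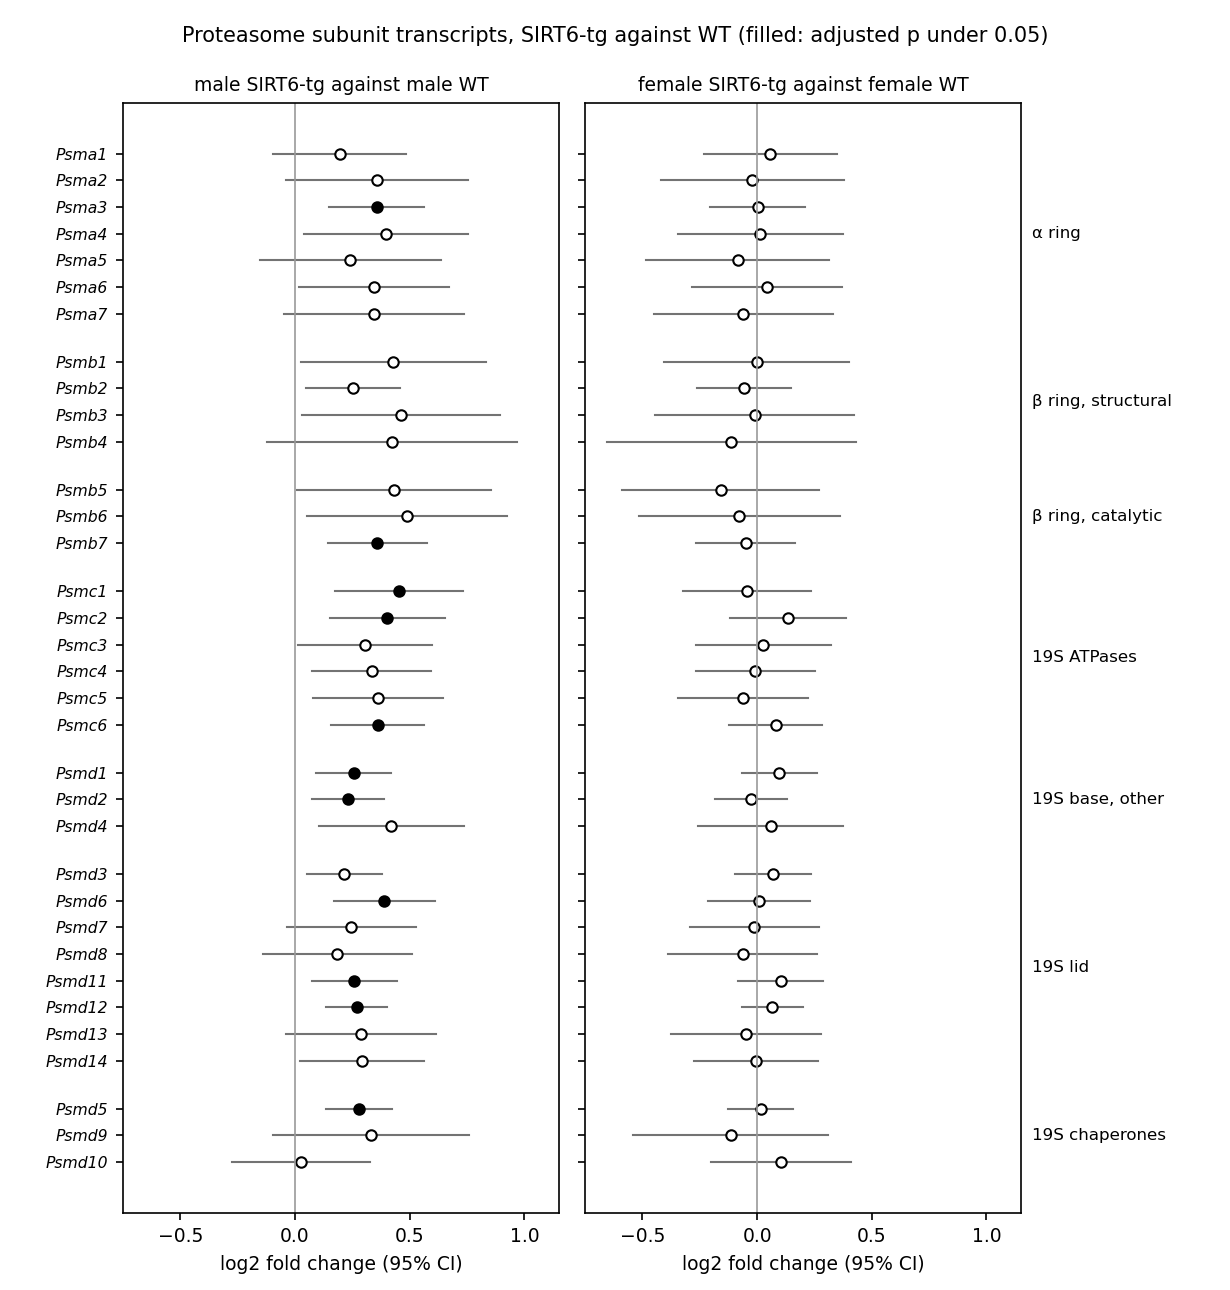
Log2 fold change of the 34 subunit transcripts (TMM scaling), ordered by role, in the male and female comparisons of SIRT6-tg with WT mice, with the 95% interval as bars and filled points for an adjusted p under 0.05. All male values lie above 0 and 11 of them are filled, and the female values lie on both sides of 0 with none filled.

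In the lid of the 19S particle, which removes ubiquitin chains from substrates, 3 of 8 transcripts rose in males. *Psmd12*, one of the structural subunits of the lid (chr11:107479484-107504362, plus strand), had 74.2, 74.5 and 85.5 CPM as the lowest, median and highest of the WT mice and 84.4, 93.4 and 101 CPM in SIRT6-tg mice. Of the 7 SIRT6-tg mice, 6 exceeded every WT mouse, and the log2 fold change was 0.27 ± 0.07 (SE, n = 7 per group, edgeR adjusted p = 0.00327). With library size alone the log2 fold change of *Psmd12* was -0.018. *Psmd6* ranged from 62.7 to 87.0 CPM with a median of 72.8 in WT mice and from 79.6 to 123 CPM with a median of 92.6 in SIRT6-tg mice. Again 6 of 7 were above all WT mice, at a log2 fold change of 0.39 ± 0.11 (SE, edgeR adjusted p = 0.00962). *Psmd11* also rose, by 0.26 on the log2 scale (edgeR adjusted p = 0.0398). The deubiquitinase *Psmd14* had a log2 fold change of 0.29 (edgeR adjusted p = 0.119), and the values of *Psmd3*, *Psmd7*, *Psmd8* and *Psmd13* lay between 0.18 and 0.29 without passing the test.

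Of the 6 ATPases that unfold substrates in the base, 3 rose. *Psmc6* had 78.4, 84.6 and 96.3 CPM (lowest, median, highest) in male WT mice and 93.7, 107 and 136 CPM in male SIRT6-tg mice, 6 of which were above all WT mice. Its log2 fold change was 0.36 ± 0.10 (SE, edgeR adjusted p = 0.00927). *Psmc1* had 94.2, 116 and 149.8 CPM in WT mice and 115, 140.5 and 239 CPM in SIRT6-tg mice. Here the groups overlapped more, with 3 SIRT6-tg mice above all WT mice and a log2 fold change of 0.45 ± 0.14 (SE, edgeR adjusted p = 0.0174). For *Psmc2* the values were 80.6, 94.2 and 120.1 CPM against 99.9, 113 and 167 CPM, with a log2 fold change of 0.40 ± 0.12 (SE, edgeR adjusted p = 0.0187) and again 3 mice above the WT range. *Psmc3*, *Psmc4* and *Psmc5* had values from 0.31 to 0.36 and did not pass. Beside the ATPases, the base scaffolds rose. *Psmd1* (chr1:86064387-86139151, plus strand) had 88.7, 97.2 and 100.2 CPM in WT and 102, 114 and 127 CPM in SIRT6-tg mice, so the ranges did not overlap. Its log2 fold change was 0.26 ± 0.08 (SE, edgeR adjusted p = 0.0208) with TMM scaling and -0.031 with library size alone. *Psmd2*, the other large scaffold, which docks the shuttle proteins, had 118, 141 and 163 CPM against 155, 165 and 181 CPM, with 4 mice above the WT range and a log2 fold change of 0.23 ± 0.08 (SE, edgeR adjusted p = 0.0317). The ubiquitin receptor *Psmd4* had a log2 fold change of 0.42 (edgeR adjusted p = 0.0519).

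Of the 3 assembly chaperones, 1 passed the test, and differences among the 3 were not tested. *Psmd5* (chr2:34849734-34874968, minus strand) had 33.7, 36.04 and 39.2 CPM as the lowest, median and highest male WT values and 41.0, 43.9 and 47.5 CPM in male SIRT6-tg mice. With TMM scaling all 7 SIRT6-tg mice stood above all WT mice, and the log2 fold change was 0.28 ± 0.07 (SE, edgeR adjusted p = 0.00443). With library size alone the log2 fold change of *Psmd5* was -0.0078. *Psmd9* had a log2 fold change of 0.33 (edgeR adjusted p = 0.283). *Psmd10*, which encodes gankyrin, had 12.4, 17.1 and 21.6 CPM in WT and 13.0, 15.5 and 22.5 CPM in SIRT6-tg mice, the smallest difference of the list. Its log2 fold change of 0.03 ± 0.15 (SE, edgeR adjusted p = 0.93) was negative under every other scaling tried.

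In the 20S core, *Psma3* of the α ring and the catalytic subunit *Psmb7* rose, and the other 12 transcripts did not pass the test. Beside these counts by role, 20.6% of the 5818 genes of like level and 9.68% of all genes were higher in males. *Psma3* had 28.4, 30.1 and 36.2 CPM in male WT and 33.6, 38.7 and 48.2 CPM in male SIRT6-tg mice, 5 of them above all WT mice. The log2 fold change was 0.36 ± 0.10 (SE, edgeR adjusted p = 0.0113). *Psma1*, *Psma2*, *Psma4*, *Psma5*, *Psma6* and *Psma7* ranged from 0.19 to 0.40. *Psmb7*, the trypsin-like subunit (chr2:38588036-38644087, minus strand), had 73.7, 78.4 and 90.6 CPM against 87.5, 98.8 and 132 CPM, with 5 mice above the WT range and a log2 fold change of 0.36 ± 0.11 (SE, edgeR adjusted p = 0.0144). The structural β subunits *Psmb1*, *Psmb2*, *Psmb3* and *Psmb4* had values of 0.25 to 0.46. *Psmb6* had 92.5, 121 and 198 CPM in WT and 122, 147 and 279 CPM in SIRT6-tg mice. Its log2 fold change, 0.49 ± 0.21 (SE, edgeR adjusted p = 0.108), was the highest of the 34, and its groups overlapped. *Psmb5* (chr14:54614119-54618022, minus strand) had 26.6, 37.9 and 55.9 CPM against 35.02, 47.6 and 79.1 CPM, a log2 fold change of 0.43 ± 0.21 (SE, edgeR adjusted p = 0.147). Thus the largest fold changes were not those with the lowest adjusted p.

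**Figure D2:**
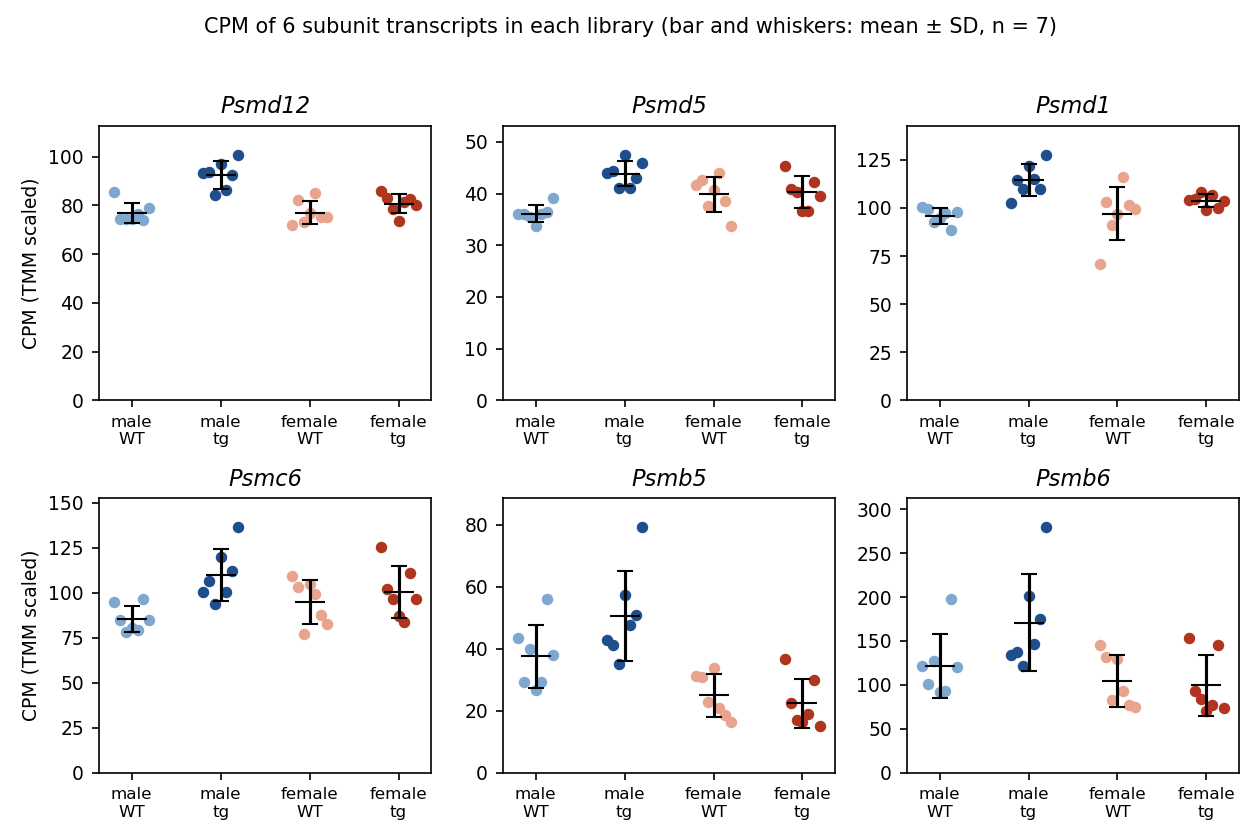
CPM (TMM scaling, linear axis from 0) of *Psmd12*, *Psmd5*, *Psmd1*, *Psmc6*, *Psmb5* and *Psmb6* in each of the 28 livers, 1 point per mouse, with bars and whiskers for the mean and SD (n = 7). Male SIRT6-tg mice lie above male WT mice without overlap for *Psmd5* and *Psmd1* and with overlap for the others, and the female groups overlap for all of them.

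In each male group 1 library had the highest values for most subunits. Summed over the 34 genes, CPM ranged from 2555 to 4023 with a median of 3087 in male WT mice and from 2920 to 5389 with a median of 3405 in male SIRT6-tg mice. WT replicate 6 was the highest of its group for 27 of the 34 genes and SIRT6-tg replicate 7 for 32. Both also had the lowest exon length slope of their group, -0.229 and -0.280. This slope is the change in log2 level, relative to the mean of all libraries, per doubling of exon length, so these libraries held relatively more counts on short genes. The median exon length was 2335 bases for 20S and 2938.5 bases for 19S genes against 3251 bases for all tested genes. Members ranged from 899 bases (*Psmb5*) to 7265 bases (*Psmd1*), and 13 of the 34 exceeded that median, among them 8 of the 11 transcripts that rose in males. In male WT mice the 4 libraries of negative slope had summed values of 3087 to 4023 CPM, and the 3 of positive slope had 2555 to 2673 CPM. Sums were also higher at negative slope in male SIRT6-tg (6 libraries against 1), female WT (3 against 4) and female SIRT6-tg mice (2 against 5). Mean slopes were -0.013 in male WT, -0.083 in male SIRT6-tg, 0.036 in female WT and 0.060 in female SIRT6-tg mice. Their SDs were 0.11 to 0.14 (n = 7 each). The groups compared were therefore not balanced in slope. The ratio of 20S to 19S counts varied from 0.640 to 0.981 among all 28 livers. Without WT replicate 6 the number of transcripts higher in males was 20, and it was 5 without WT replicate 4 or without SIRT6-tg replicate 7. With the library of lowest slope left out of each group it was 13, with the length trend of each library removed it was 17, and with the slope as a covariate it was 23. The median log2 fold change of the 34 genes did not follow the counts, as it was 0.32 in each of the first 2 of these 3 fits and fell from 0.34 to 0.20 with the covariate. *Psmd12*, *Psmd5*, *Psmd6*, *Psmc6* and *Psma3* passed in all 14 fits that left out 1 male library. Leaving out a library does not test the scaling. With library size alone *Psmd12* and *Psmd5* turned negative, and *Psmd6*, *Psmc6* and *Psma3* stayed positive. Without WT replicate 4 or SIRT6-tg replicate 7, *Psmc1*, *Psmb7*, *Psmc2* and *Psmd1* no longer passed, with edgeR adjusted p up to 0.0778, 0.0609, 0.0708 and 0.08. *Psmc2* was also lost without WT replicate 2, and *Psmd1* without WT replicate 3 or SIRT6-tg replicate 4. *Psmd2* passed in 6 and *Psmd11* in 3 of the 14 fits, with edgeR adjusted p up to 0.103 and 0.155. The part of RNA quality or library preparation in the slope was not tested.

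**Figure D3:**
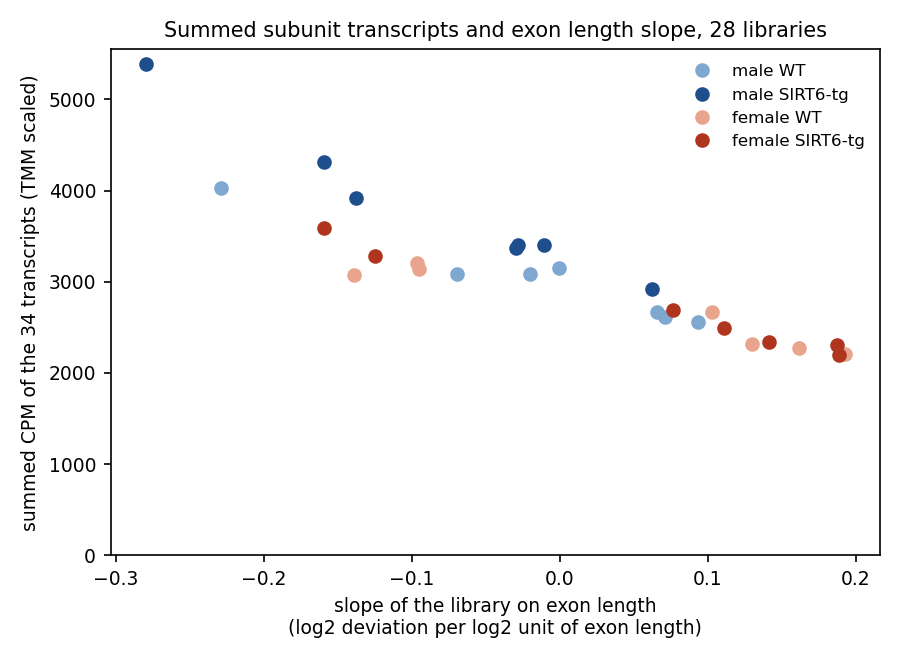
Exon length slope of each library (log2 level per doubling of exon length, x axis) against the summed CPM of the 34 subunit transcripts (y axis), 1 point per mouse, coloured by group. The libraries of lowest slope, male SIRT6-tg replicate 7 at -0.280 and male WT replicate 6 at -0.229, have the highest sums of their groups.

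**Figure D4:**
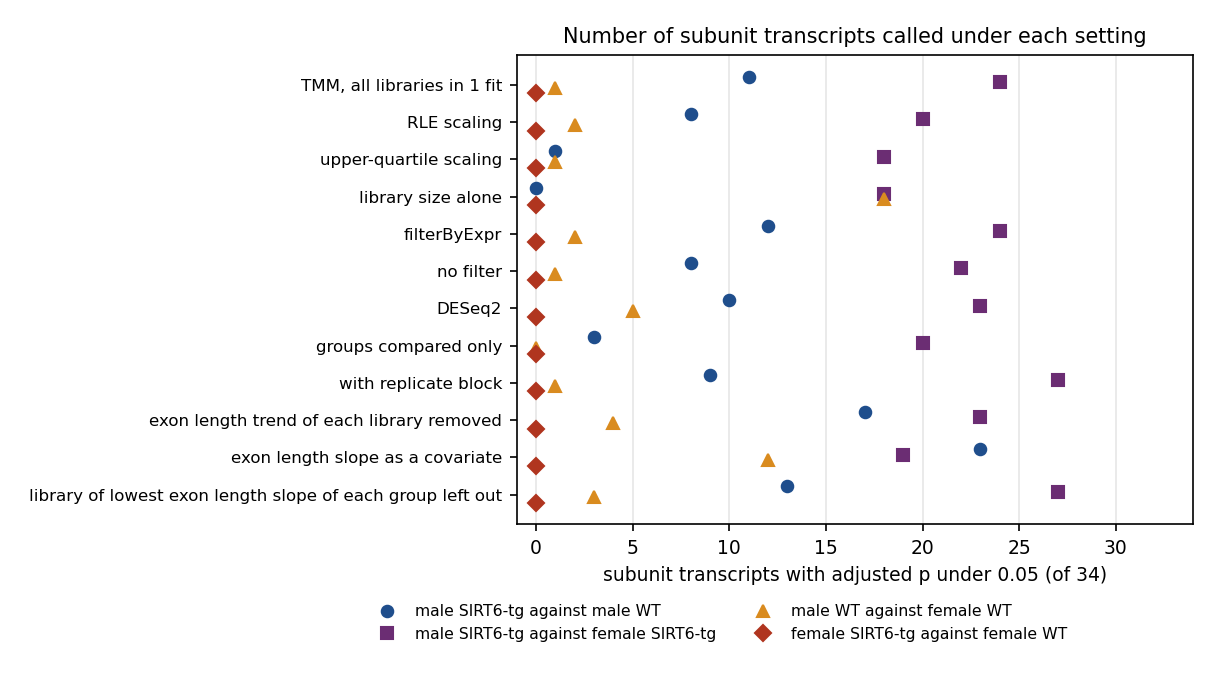
Number of the 34 subunit transcripts that passed an adjusted p under 0.05 in each comparison, for each way of scaling, filtering and fitting the counts. In males the number runs from 0 with library size alone to 23 with the exon length slope as a covariate, and in females it is 0 throughout.

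Subunit counts in males stood beside other shifts in the same livers. Of the cell type markers examined, all 8 T cell, all 8 macrophage and dendritic cell, all 5 stellate cell and 3 of 4 B cell markers were lower in male SIRT6-tg mice. The same was true of 1 of 5 endothelial, 0 of 3 tested neutrophil and 0 of 4 cholangiocyte markers. Summed T cell markers had 15.8 to 48.9 CPM in male WT and 5.12 to 7.39 CPM in male SIRT6-tg mice, and macrophage and dendritic cell markers 766 to 2357 and 339 to 605 CPM. Of the defining markers, *Ly6g* was at 0 in 22 libraries and *Elane* in 8, and no other was at 0 in any library. Of 10 hepatocyte markers 3 were higher, as were 6 of 8 tested mitochondrially encoded genes. Of all genes tested, 9.68% were higher and 11% were lower. As a share of counts, without TMM scaling, hepatocyte markers had a mean of 13.1% in male WT and 13.6% in male SIRT6-tg mice. The part of cell composition in the subunit fold changes was not tested.

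In females, 0 of 34 subunit transcripts differed between SIRT6-tg and WT mice by edgeR's quasi-likelihood test, and 0 did by DESeq2. None had an unadjusted p under 0.05 in edgeR (0 of 34). Over all genes, 0.0278% were called in females and 5.62% had an unadjusted p under 0.05. The subunits had 15 positive and 19 negative log2 fold changes, from -0.16 to 0.13, with a median of -0.01 against 0.00 over all genes. Summed CPM had a median of 2670.1 (2207 to 3209) in female WT and 2491 (2192 to 3589) in female SIRT6-tg mice. *Psmd12* had 72.0, 75.3 and 85.0 CPM against 73.5, 81.2 and 85.8 CPM. *Psmb7* had 61.9, 75.04 and 92.1 CPM against 62.1, 67.3 and 93.2 CPM, and *Psmb5* 16.5, 22.9 and 33.6 CPM against 15.05, 18.96 and 36.6 CPM. For these 3 genes the female groups overlapped over most of their ranges. The 95% intervals bound the female differences at -0.26 to 0.17 for *Psmb7*, at -0.51 to 0.36 for *Psmb6* and at -0.59 to 0.27 for *Psmb5*, the latter with an estimate of -0.16 ± 0.21 (SE). Over the 34 genes the intervals extended from -0.66 to 0.43. Female SIRT6-tg replicate 1 was the highest of its group for 30 of the 34 genes and had the lowest slope of that group, -0.159.

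Whether the fold change between genotypes depended on sex was tested directly, as the male minus the female value. It was called for 0 of 34 subunits by edgeR's quasi-likelihood test and for 0 by DESeq2, and 5.04% of all genes were called. The unadjusted p was under 0.05 for 9 subunits (26.5%), against 18.8% of all genes. These were *Psma3*, *Psmb2*, *Psmb7*, *Psmc1*, *Psmc5*, *Psmd2*, *Psmd5*, *Psmd6* and *Psmd12*. The estimate was positive for 33 of 34 genes, with a median of 0.33 and a range of -0.08 to 0.59 on the log2 scale. The median was 0.03 over all genes and 0.13 over the 5818 genes of like level. *Psmb7* had the lowest adjusted p, 0.115 in edgeR's test, at a difference of 0.41. The largest estimate was that of *Psmb5*, 0.59 ± 0.30 (SE, 95% interval -0.01 to 1.19, edgeR adjusted p = 0.279). A male effect that differs from the female one was therefore not shown for any single subunit. The log2 fold change of *Sirt6* itself was larger in males by 3.29, so sex and transgene level cannot be told apart in this contrast. Of the alternatives run, only the fit with the exon length slope as a covariate called subunits, 5 higher and 1 lower, and there the median of the 34 differences was 0.16.

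Sex was also compared within each genotype. Between WT males and WT females, 1 of 34 subunits (2.94%) was higher in males, against 6.66% of all genes, and 9 (26.5%) had an unadjusted p under 0.05, against 25.1%. It was *Psmd2*, with 118, 141 and 163 CPM in males and 90.4, 119 and 128 CPM in females, and a log2 fold change of 0.28 ± 0.08 (SE, edgeR adjusted p = 0.0149). *Psmb5* had a log2 fold change of 0.59 (edgeR adjusted p = 0.0622), and 29 of 34 values were positive, with a median of 0.17. Over all genes the median was -0.003, and over the 5818 genes of like level it was -0.03. The median of the members was 0.08 without male WT replicate 6, 0.26 without female WT replicate 4, 0.06 with the slope as a covariate and 0.37 with library size alone. The count of 1 was unstable. It was 18 with library size alone, 12 with the slope as a covariate (9 higher and 3 lower), and 7 without female WT replicate 4, 5 without female WT replicate 2, 4 without male WT replicate 2, 3 without female WT replicate 1 and 2 without male WT replicate 4 or 5.

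Between SIRT6-tg males and SIRT6-tg females, 24 of 34 subunits (70.6%) were higher in males and 0 were lower, against 12.9% of all genes that were higher, 10.2% that were lower, and 26.1% higher among the 5818 genes of like level. The unadjusted p was under 0.05 for 29 subunits and for 35.4% of all genes. The median log2 fold change was 0.50, with a range of 0.12 to 1.18, against -0.04 over all genes and 0.09 over the genes of like level. The count was 17 to 28 in every other fit, but the median of the members fell to 0.22 with the exon length slope as a covariate. The mean slope was -0.083 in SIRT6-tg males and 0.060 in SIRT6-tg females. This comparison shares its male SIRT6-tg mice with the male comparison and its females with the female one, so it is no separate evidence on genotype. SIRT6-tg males also had the higher *Sirt6* level, so sex and transgene level cannot be told apart in it. All 3 catalytic subunits were higher in males. *Psmb5* had 35.02 to 79.1 CPM in males and 15.05 to 36.6 CPM in females, which overlapped slightly, and it was 2.27-fold higher, a log2 fold change of 1.18 ± 0.21 (SE, edgeR adjusted p = 0.00016). *Psmb6* had a log2 fold change of 0.78 ± 0.21 (SE, edgeR adjusted p = 0.00892) and *Psmb7* of 0.50 (edgeR adjusted p = 0.000912). The 2 lowest adjusted p-values belonged to *Psmd2* and *Psma3*. *Psmd2* had 155 to 181 CPM in males and 109 to 121 CPM in females, without overlap, and a log2 fold change of 0.53 ± 0.08 (SE, edgeR adjusted p = 8.55e-06). *Psma3* had 33.64 to 48.2 CPM in males and 21.7 to 33.63 CPM in females and a log2 fold change of 0.62 ± 0.10 (SE, edgeR adjusted p = 4.69e-05). Its ranges were just separate, and those of *Psmd3* were separate too (0.37 on the log2 scale), against 3.58% of all genes with separate ranges in this direction.

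By role, transcripts higher in SIRT6-tg males than SIRT6-tg females were 4 of 7 in the α ring, 3 of 4 structural β subunits, 5 of 6 ATPases, 2 of 3 other base subunits, 7 of 8 in the lid and 0 of 3 chaperones. Among the ATPases *Psmc4* had a log2 fold change of 0.65, *Psmc1* of 0.66 and *Psmc5* of 0.66, with edgeR adjusted p-values of 0.000452, 0.00082 and 0.000848. In the lid, *Psmd13* had 0.77 ± 0.16 (SE, edgeR adjusted p = 0.000792), *Psmd14* 0.62 (adjusted p = 0.000985) and *Psmd6* 0.50 (adjusted p = 0.00115). The subunits that did not pass were *Psma1*, *Psma4*, *Psma6*, *Psmb1*, *Psmc6*, *Psmd1* and *Psmd11* and the chaperones *Psmd5*, *Psmd9* and *Psmd10*. Of these 10, *Psmc6*, *Psmd1*, *Psmd5* and *Psmd11* had passed the test between male genotypes.

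The constitutive catalytic subunits were set against the immune subunits that take their places in the core. In males 2 of the 3 immune transcripts fell. *Psmb8*, the counterpart of *Psmb5*, had 45.1, 71.3 and 165 CPM as the lowest, median and highest WT values and 25.8, 35.8 and 71.2 CPM in SIRT6-tg mice, with a log2 fold change of -0.99 ± 0.31 (SE, edgeR adjusted p = 0.0211). *Psmb9*, the counterpart of *Psmb6*, had 37.3, 68.7 and 107 CPM against 17.1, 24.2 and 45.1 CPM, a log2 fold change of -1.35 ± 0.33 (SE, edgeR adjusted p = 0.00368). *Psmb10*, the counterpart of *Psmb7*, had 63.9, 90.9 and 204 CPM against 43.4, 62.4 and 131 CPM, a log2 fold change of -0.59 ± 0.33 (SE, edgeR adjusted p = 0.219). In females 0 of the 3 passed, with a median of -0.18. Male WT mice had higher *Psmb8* (log2 fold change 1.01, edgeR adjusted p = 0.0277) and *Psmb9* (1.24, adjusted p = 0.0113) than female WT mice.

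A ratio of counts within a library does not depend on how libraries are scaled. It can depend on the exon length slope where the genes of a pair differ in length. Lengths were 899 and 3381 bases for *Psmb5* and *Psmb8*, 1872 and 3660 for *Psmb6* and *Psmb9*, and 3421 and 1705 for *Psmb7* and *Psmb10*. The part of the slope in the ratios was not tested. The log2 ratio of *Psmb5* to *Psmb8* had -1.56, -1.10 and -0.58 as its lowest, median and highest value in male WT mice and 0.15, 0.30 and 0.44 in male SIRT6-tg mice. All 7 SIRT6-tg mice were above all WT mice, at a difference of 1.37 (exact two-sided permutation test, p = 0.000583, the smallest that all splits of 7 against 7 allow, adjusted p over 6 tests 0.00175). The log2 ratio of *Psmb6* to *Psmb9* was 0.43, 0.89 and 1.32 in WT and 2.48, 2.63 and 2.83 in SIRT6-tg mice, again without overlap, a difference of 1.80 with the same exact p. For *Psmb7* to *Psmb10* it was -1.17, -0.30 and 0.24 against 0.01, 0.67 and 1.01, a difference of 0.93 with 6 of 7 mice above the WT range (exact permutation p = 0.00175, adjusted 0.0035). The ratios compare unequal change of the genes of a pair and do not say which gene moved. In females the differences were 0.09, 0.04 and 0.14 (exact permutation p = 0.695, 0.909 and 0.652), with groups that overlapped. The T cell and macrophage marker sums, given above, were also lower in male SIRT6-tg mice, and their part in these ratios was not tested.

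**Figure D5:**
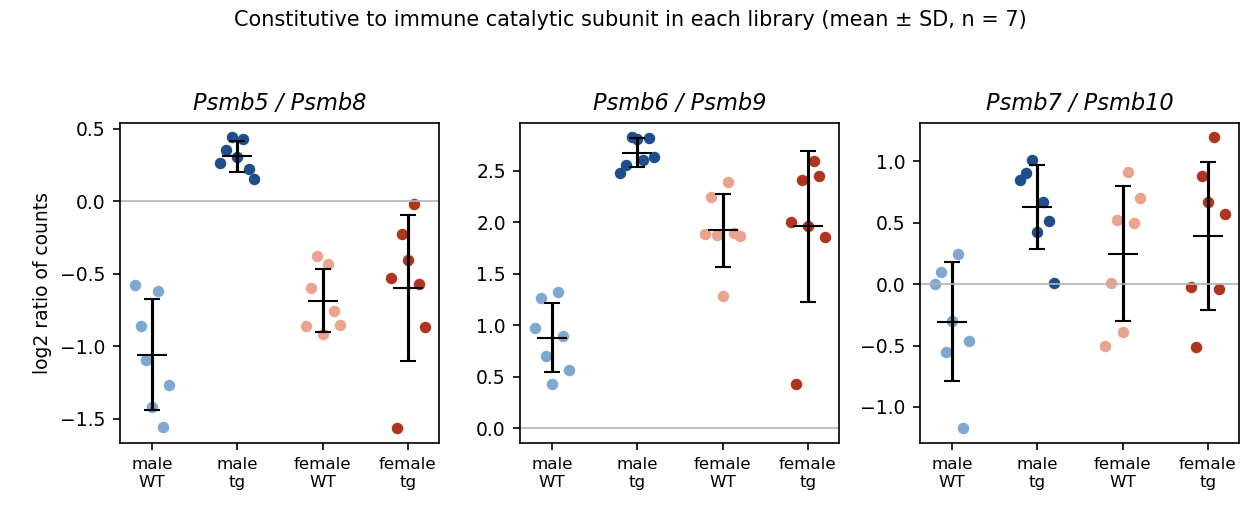
Log2 ratio of counts of each constitutive catalytic subunit to its immune counterpart, 1 point per mouse, with bars and whiskers for the mean and SD (n = 7). In males the SIRT6-tg points lie above all WT points for *Psmb5*/*Psmb8* and *Psmb6*/*Psmb9*, and in females the groups overlap for all 3 ratios.

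Other genes of the pathway were counted by list. The 19S subunits that the symbol rule does not take in, *Adrm1* and *Sem1*, had 0 of 2 higher between male genotypes and 2 of 2 between SIRT6-tg sexes (log2 fold changes 0.61 and 1.05). Assembly factors of the core and base had 0 of 5 called in males, with a median of 0.44. Between SIRT6-tg males and females 3 of these 5 were higher, the core chaperones *Psmg1*, *Psmg2* and *Psmg3*, with 0.60, 0.82 and 0.78. Of the ubiquitin shuttles, which carry substrates to the particle, *Rad23b* rose in males by 0.28 (edgeR adjusted p = 0.0277) and *Ubqln1* by 0.24 (edgeR adjusted p = 0.0338) on the log2 scale. Activators and the inhibitor had 0 of 5 called in males (median -0.07), bound deubiquitinases and ligase 0 of 4, the p97 segregase list 0 of 3 and the tissue-specific core subunits 0 of 1 tested. Among the lists with no call in males, an unadjusted p under 0.05 in edgeR was reached by 1 of the outlying 19S subunits, 2 assembly factors, 1 activator, 2 bound enzymes, 2 segregase genes and 0 tissue-specific subunits. Over all genes, 32.6% reached it in males. The called shares of all genes were 9.68% higher in males and 12.9% higher between SIRT6-tg sexes. Between SIRT6-tg sexes the segregase genes *Vcp* (0.63) and *Ufd1* (0.36) were higher in males. Of the 6 transcription factors and processing genes 1 rose in males, *Ngly1*, a deglycosylase that acts on NRF1, by 0.22 (edgeR adjusted p = 0.0238). *Nfe2l1*, which encodes NRF1, had a log2 fold change of 0.10 (adjusted p = 0.431), and *Nfe2l2*, which encodes NRF2, of -0.08 (adjusted p = 0.573). In females these lists had 0 called genes and 0 with an unadjusted p under 0.05 in edgeR.

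Some counts may be shared with neighbouring gene models, since the strand setting of the counting is not given in the sources used here. Exons of *Psmc3*, *Psmd3*, *Psmd13*, *Psmd1*, *Psmb7*, *Psmd9*, *Psma4* and *Psma5* overlap exons on the opposite strand, for example those of *Sirt3* for *Psmd13* and of *Slc39a13* for *Psmc3*. On their own strand, exons of *Psmb5* overlap the microRNA model *Mir686* and exons of *Psmd1* overlap *Gm21972*, a protein-coding model. Overlaps on the same strand hold under any strand setting. The values of these genes are uncertain to that extent. The counted pseudogenes of catalytic subunits held few counts over all 28 libraries, namely 2 for *Psmb5-ps*, 4 for *Psmb6-ps*, 27 for *Psmb6-ps2* and 10 for *Psmb7-ps2*.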

How the data were processed

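Liver RNA-seq counts of 28 mice were used. Per the submitters' processing notes, reads were aligned with STAR 2.5.0a to mm10, and the authors counted reads per gene with HTSeq, so the deposited values are raw counts of 49585 Ensembl features. Symbols, positions and union exon lengths came from Gencode vM21 (GRCm38). Genes with a mean of at least 0.5 counts after DESeq2 size factors were kept (21583). One edgeR 4.0.16 quasi-likelihood fit (R 4.3.3, TMM, robust) held all 28 libraries with a mean per group, and p-values were adjusted over all tested genes by the Benjamini-Hochberg method. The SE is the log2 fold change divided by the square root of F. Catalytic ratios, with 0.5 added to each count, were compared by exact permutation. Replicates are separate mice. Total counts (18758863 to 35393069) limit precision by counting error only. Same-numbered mice did not deviate together (correlations over 0.1 in 1 to 3 of 7 pairs), so the numbers were not taken to pair mice.

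Alternatives were RLE, upper-quartile and library size scaling, 2 other filters, DESeq2 1.42.0, fits of the compared groups only, a replicate block and each library left out. Those on exon length were added after seeing the data. The members and lists were chosen with earlier results of these data known. All members are named, with full statistics for at most the 10 called members of lowest adjusted p per comparison, the catalytic and immune subunits and *Sirt6*. Genes of other lists are named where called, except for some results that are not reported here. *Nfe2l1*, *Nfe2l2*, the details of *Psmd10* and the libraries named beside the exon length slope were chosen after their values were seen. Scripts were tested on simulated counts.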

Additional observations from a re-analysis of the deposited data

Results flagged for a closer look

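Of 136 sets of 7 values (34 subunits in 4 groups), 13 held a library whose gap to its nearest neighbour exceeded Dixon's 95% critical value for 7 values. Chance gives about 1 in 20 for independent sets, but these sets share the same 28 libraries, so the 13 are not separate events. Male WT replicate 6 was the highest of its group in 11 of them, with 119 CPM for *Psma2*, 138 for *Psma4*, 176 for *Psma6*, 214 for *Psmb1*, 59.5 for *Psmb3*, 361 for *Psmb4*, 198 for *Psmb6*, 95.2 for *Psmc5*, 121 for *Psmd7*, 110.1 for *Psmd9* and 122 for *Psmd13*. Of these genes 0 are among the 11 that were called between male genotypes. Male WT replicate 1 was the highest of its group for *Psmd12* (85.5 CPM), and female WT replicate 1 was the lowest for *Psmd2* (90.4 CPM). The transgene itself differed between the sexes, with a male minus female log2 fold change of *Sirt6* of 3.29 (edgeR interaction test, adjusted p = 6.96e-06).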

How the results depend on the processing

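The number of subunits called between male genotypes, 11 as reported, was 1 with upper-quartile scaling, 0 with library size alone, 3 with a fit of the male groups only, 17 with the exon length trend removed and 23 with the exon length slope as a covariate. It was 5 (without male WT replicate 4) to 20 (without male WT replicate 6) with 1 library left out. Between WT sexes, the 1 call became 2 with RLE scaling, 18 with library size alone, 2 with filterByExpr, 5 with DESeq2, 0 with only these groups, 4 with the length trend removed, 12 with the slope covariate and 3 with the library of lowest slope of each group left out. It was 1 to 7 without single libraries. The sex difference went from 0 to 6 calls with the slope covariate. A replicate block gave 9, 1 and 27 calls between male genotypes, WT sexes and SIRT6-tg sexes and moved no count by over 1.5 times. The cause of these changes was not tested.

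With library size alone, male log2 fold changes turned negative for *Psmd2* (-0.054), *Psmd3* (-0.071), *Psmd11* (-0.033), *Psmd12* (-0.018), *Psmd13* (-0.015), *Psmd1* (-0.031), *Psmd5* (-0.0078), *Psmd14* (-0.0079), *Psmb2* (-0.044), *Psmd8* (-0.12), *Psma1* (-0.11), *Psmd10* (-0.27), *Psmd7* (-0.057) and *Psma5* (-0.066). *Psmd10* was also negative with RLE (-0.014), upper-quartile scaling (-0.057), DESeq2 (-0.014), male groups only (-0.058), the length trend removed (-0.026) and the slope covariate (-0.13), and ran from -0.068 to 0.10 without single libraries. Between SIRT6-tg sexes the slope covariate turned *Psmb1* (-0.018), *Psmc6* (-0.040) and *Psmd10* (-0.0017) negative. Without single libraries the female ratio difference ran from -0.0081 to 0.25 for *Psmb5*/*Psmb8* and from -0.068 to 0.29 for *Psmb6*/*Psmb9*, and no male ratio lost its call. Moving to library size alone shifted the median of all genes by over 0.1 in every comparison but the female one.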
